A study of Homo sapiens with 12 samples.

Results

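The let-7 family and its relative miR-98 were followed through TGF-β treatment of A549 cells, a human lung adenocarcinoma cell line of epithelial morphology. The 9 guide strands, the strands of each precursor that are mainly loaded into Argonaute, were hsa-let-7a-5p, hsa-let-7b-5p, hsa-let-7c-5p, hsa-let-7d-5p, hsa-let-7e-5p, hsa-let-7f-5p, hsa-let-7g-5p, hsa-let-7i-5p, and hsa-miR-98-5p, written below without the human prefix. They were chosen by name from the 2588 mature miRNAs of the count table, of which 1417 had a count, and where a name stood on several precursor entries the entry with the highest total was used. Cells of 3 time points were compared, before TGF-β (0 h) and after 24 and 96 h of this cytokine, which was used to induce EMT. Each time point has 2 small RNA libraries, and the authors summed the 2 sequencing runs of each of the 6 libraries. By the dates in the sample titles, all first runs share a date. The second runs of both 24 h libraries carry another date than those of both 96 h libraries, and the 0 h libraries are divided between these dates. Between 24 and 96 h, time point and date of the second run thus cannot be told apart. All groups are the same unmodified line, and per the methods the cells were seeded without serum before TGF-β1 was added. No untreated culture of 24 or 96 h was among the samples, so that TGF-β and time in culture cannot be told apart, and nothing states that the libraries of a time point came from separate cultures, so p-values measure only the spread between these libraries.

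The let-7 miRNAs are among the most conserved miRNAs of animals. They accumulate as cells differentiate, and the RNA-binding protein LIN28 blocks the maturation of their precursors in stem cells and in some tumours. In lung cancer they are known as repressors of growth-promoting genes, among them the RAS genes and HMGA2, which they recognize mainly through the seed, bases 2 to 8 of the guide strand.

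The mature sequences are shown because the members differ by so few bases that the assignment of reads between them matters for every value. They were taken from RefSeq (GRCh38.p14), are written 5′ to 3′, and carry the seed in capitals.
let-7a-5p: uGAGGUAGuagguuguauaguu
let-7b-5p: uGAGGUAGuagguugugugguu
let-7c-5p: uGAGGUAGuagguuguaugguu
let-7d-5p: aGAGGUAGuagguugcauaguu
let-7e-5p: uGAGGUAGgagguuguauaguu
let-7f-5p: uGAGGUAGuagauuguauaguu
let-7g-5p: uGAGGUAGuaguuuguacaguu
let-7i-5p: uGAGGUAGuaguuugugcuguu
miR-98-5p: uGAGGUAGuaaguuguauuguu

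All 9 were 22 bases long and shared the seed GAGGUAG, and 0 of the 8 positions at which they varied lay within it. Counted from 1 at the 5′ end and with the base of let-7a-5p first, let-7c-5p differed by A19G, let-7e-5p by U9G, and let-7f-5p by G12A. let-7b-5p carried A17G and A19G, let-7d-5p U1A and U16C, let-7g-5p G12U and U18C, and miR-98-5p G11A and A19U. let-7i-5p was the farthest from let-7a-5p, with G12U, A17G, U18C, and A19U. Of the 36 pairs of members, 4 differed by 1 base, and 1 of these 4 was let-7b-5p and let-7c-5p. The total of let-7c-5p over all libraries was 12920 against 258253 for let-7a-5p, it was 14.0% of that of let-7b-5p, and the total of let-7e-5p was 19.7% of that of let-7a-5p. How many mismatches the counting allowed is not given in the sources used here, so low members with an abundant neighbour at 1 base are uncertain. The same seed was found in miR-4458, with 1 count in all libraries together, and in miR-4500, with at most 5 counts in a library.

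The members come from 12 precursors, placed here on GRCh37 with GENCODE annotation. let-7a-5p is encoded 3 times. MIRLET7A1 (chr9:96938234-96938325, + strand) forms a cluster with MIRLET7F1 (chr9:96938629-96938715), 303 bases away, and MIRLET7D (chr9:96941116-96941202), a further 2400 bases away, and all 3 lie in exons of the lncRNA MIRLET7A1HG. MIRLET7A2 (chr11:122017229-122017301, − strand) lies in an intron of MIR100HG, 5635 bases from MIR100. MIRLET7A3 (chr22:46508629-46508702, + strand) and MIRLET7B (chr22:46509566-46509648) lie 863 bases apart in exons of MIRLET7BHG. MIRLET7F2 (chrX:53584153-53584235, − strand) and MIR98 (chrX:53583184-53583302) lie 850 bases apart in an intron of HUWE1, which encodes a ubiquitin ligase. MIRLET7C (chr21:17912143-17912236, + strand) lies in an exon of MIR99AHG, 653 bases from MIR99A. MIRLET7E (chr19:52196039-52196117, + strand) lies in an intron of SPACA6, 104 bases from MIR99B and 389 bases from MIR125A. MIRLET7G (chr3:52302292-52302379, − strand) lies in an intron of WDR82, and MIRLET7I (chr12:62997466-62997550, + strand) in an intron of MIRLET7IHG. The table cannot divide the reads of let-7a-5p or let-7f-5p among their precursors, since its entries hold nearly the same reads. The 3 entries of let-7a-5p had totals of 258249, 257967, and 258253, and the lower entry of let-7f-5p held 98.3% of the reads of the higher.

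The libraries held 2335185 to 5971197 counts on mature miRNAs, with the 96 h libraries the deepest, and a count of 0 allowed up to 0.502 to 1.28 CPM (3 counts, counting error only). miR-21-5p alone took 54.3% ± 2.61 of the reads at 0 h, 57.5% ± 0.931 after 24 h, and 64.7% ± 1.26 at 96 h (SD, n = 2), and TMM factors lay between 0.738 (a 96 h library) and 1.36 (a 0 h library). As a check of the cell type, the 6 epithelial markers of the miR-200 and miR-205 group were summed, in CPM of the total. The sum was 139 to 163 at 0 h, 161 to 184 after 24 h, and 179 to 186 at 96 h. miR-205-5p had only 6 counts in all libraries together and was at 0 in 0 h replicate 1 and in both 96 h libraries. The higher sum came from miR-200b-3p, with 52.7 and 58.6 CPM at 0 h and 109 and 94.9 at 96 h, whereas miR-200c-3p went from 26.1 and 18.7 to 12.6 and 14.2 CPM and miR-141-3p from 3.85 and 5.29 to 0.837 and 1.72 CPM. All marker values are CPM of the total, without the TMM factors used for the members below. These factors were lower at 96 h than at 0 h, so a fall in CPM of the total can shrink or vanish on the TMM scale. The 6 fibroblast markers summed to 7.73 to 10.3 CPM at 0 h, 106 at 24 h, and then 310 to 358 at 96 h, nearly all of it miR-143-3p, with miR-214-3p at 0 in every library. The 6 blood markers summed to 6.42 to 6.51 CPM at 0 h and 0.837 to 1.07 at 96 h, with miR-223-3p and miR-150-5p at 0. The part of these shifts in the values below was not tested.

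The family was abundant throughout, and most of it was let-7i-5p. The 9 members together held 12.5 and 12.0% of the reads at 0 h, 11.8 and 12.6% after 24 h, and 10.5 and 10.1% at 96 h. The share was thus lower in both 96 h libraries than in any other. With miR-21-5p left out of the total the share was 26.8% ± 2.30 at 0 h, 28.8% ± 1.93 after 24 h, and 29.2% ± 1.91 at 96 h (SD, n = 2), and the libraries overlapped. After TMM normalization, which assumes that most miRNAs do not move, the summed level was 106562 and 87653 CPM at 0 h, 112102 and 124003 after 24 h, and 142602 and 127514 at 96 h. On that scale the sum was 0.29 higher at 24 h and 0.48 higher at 96 h than at 0 h in log2, and the 96 h libraries were above both 0 h libraries. The direction of the summed family at 96 h therefore depended on the scale, with a log2-fold change of −0.24 under total counts.

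The order of the members by level hardly moved. From high to low it was let-7i-5p, let-7f-5p, let-7a-5p, let-7g-5p, let-7b-5p, let-7e-5p, miR-98-5p, let-7c-5p, and let-7d-5p at 0 and 24 h, and 7 of the 9 kept their place in all 6 libraries. The exception was the pair of miR-98-5p and let-7c-5p. There were 0.931 and 0.855 reads of let-7c-5p per read of miR-98-5p at 0 h, 0.847 and 0.898 after 24 h, and 1.28 and 1.18 at 96 h. let-7c-5p was thus below miR-98-5p in every library of 0 and 24 h and above it in both at 96 h. let-7f-5p and let-7a-5p were the closest neighbours near the top, with 1.03 to 1.25 reads of let-7f-5p per read of let-7a-5p, and their TMM levels overlapped at 0 h.

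**Figure D1:**
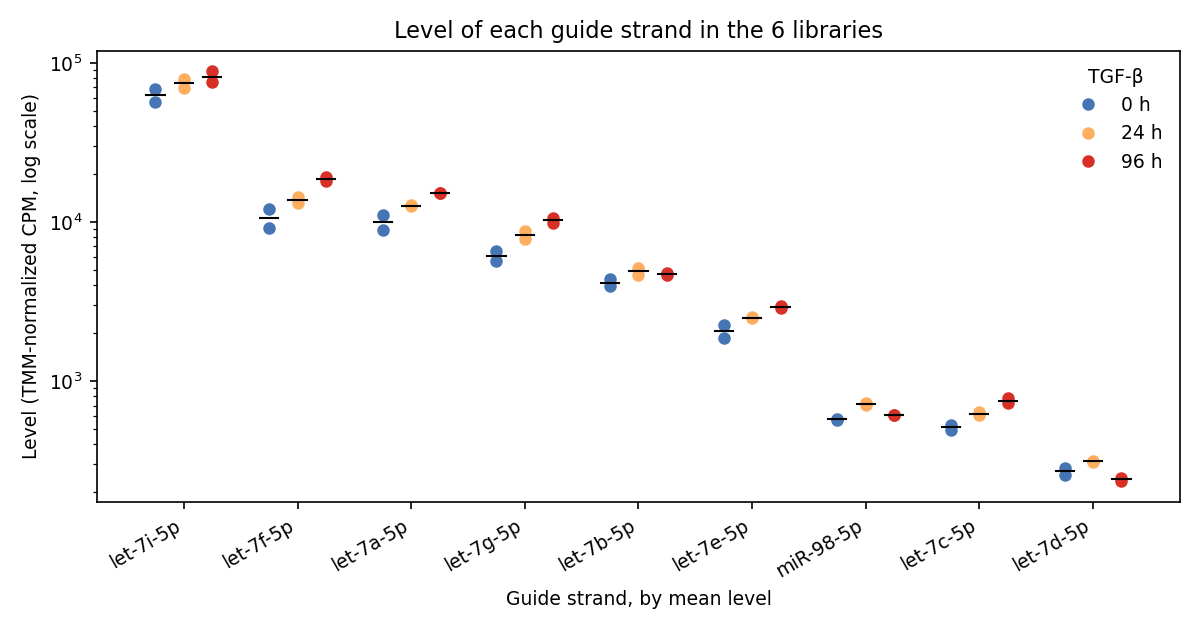
Level of each guide strand (TMM-normalized CPM, log scale) in the 6 libraries, with points for libraries coloured by hours of TGF-β and a bar at the mean of 2 libraries. let-7i-5p sits highest at every time point, and let-7d-5p is lowest and is the only member whose 96 h points lie below its 0 h points.

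At 24 h the members moved little. All 9 had a higher level in both 24 h libraries than in either 0 h library, with log2-fold changes from 0.20 for let-7d-5p to 0.43 for let-7g-5p and a median of 0.29. The median was −0.004 for all 491 tested miRNAs and 0.17 for the 153 whose mean reached 100 CPM, all members included. Of the 9, 0 had an adjusted p under 0.05 (0.0918 to 0.386, quasi-likelihood test of edgeR, Benjamini-Hochberg adjusted) and 4 an unadjusted p under 0.05, as did 28.3% of all tested miRNAs, and DESeq2's Wald test also called 0. Among all tested miRNAs 7.13% were called, and 29.3% were higher without overlap. Without 0 h replicate 1, let-7a-5p, let-7e-5p, let-7f-5p, and let-7g-5p had adjusted p-values of 0.0131, 0.042, 0.00684, and 0.013, so that the count at 24 h rests on that library.

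At 96 h, 5 of the 9 members were higher than at 0 h and 0 were lower at an adjusted p under 0.05, against 22.8% of all tested miRNAs higher and 21.2% lower. Among the 153 tested miRNAs whose mean reached 100 CPM, to which all members belong, 37.9% were higher. Of the 9, 0 also passed an absolute log2-fold change of 1, a threshold pair that 25.9% of all tested miRNAs passed, and DESeq2's Wald test gave 0 as well. At an unadjusted p under 0.05 there were 6, against 55.8% of all tested miRNAs. The median log2-fold change was 0.50 for the members, −0.10 for all tested miRNAs, and 0.19 for those of at least 100 CPM. By library, 8 members were above at 96 h and 1 below without overlap, against 33.0% and 38.7% of all tested miRNAs.

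let-7f-5p, the second most abundant member, rose most. Its level was 12061 and 9170 CPM at 0 h, 13219 and 14300 after 24 h, and 19029 and 18102 at 96 h. Both 96 h libraries lay above all others, and the change at 96 h was 0.81 in log2 (standard error, SE, 0.16 and adjusted p = 0.00328). let-7g-5p, encoded within WDR82, had 6567 and 5714 CPM at 0 h, 7822 and 8733 after 24 h, and 10554 and 9884 at 96 h. Its time points followed each other without overlap, with a log2-fold change of 0.73 at 96 h (SE 0.14, adjusted p = 0.00275). let-7a-5p had 11069 and 8889 CPM at 0 h, 12719 and 12613 after 24 h, and 15184 and 15167 at 96 h. The spread between its libraries was widest at 0 h, and the log2-fold change was 0.60 (SE 0.15, adjusted p = 0.00941). let-7c-5p went from 530 and 492 CPM to 780 and 724, a log2-fold change of 0.56 (SE 0.13, adjusted p = 0.00842). let-7e-5p went from 2233 and 1869 CPM to 2966 and 2854, a log2-fold change of 0.50 (SE 0.14, adjusted p = 0.0151). These adjusted p-values are those of the quasi-likelihood test of edgeR, Benjamini-Hochberg adjusted. Without 96 h replicate 1 the calls of let-7a-5p, let-7c-5p, and let-7e-5p were lost, and that of let-7e-5p was also lost without 96 h replicate 2. The log2-fold change of let-7e-5p was then 0.51 and 0.58. The calls of let-7f-5p and let-7g-5p remained whichever library was left out.

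The other 4 members did not pass edgeR's test, and their 95% intervals are given. DESeq2's Wald test called 6 members higher at 96 h, let-7i-5p among them. The share of all tested miRNAs that it called is not given here. With its size factors in edgeR, 127 of the 491 were higher. let-7i-5p, the dominant member, had 68905 and 56725 CPM at 0 h and 88480 and 75300 at 96 h, a log2-fold change of 0.38 (95% interval 0.0043 to 0.76, adjusted p = 0.0861, edgeR). Its call depended on the tool and filter, with an adjusted p of 0.0375 by DESeq2, 0.0356 with DESeq2's size factors in edgeR, and 0.0199 without a filter. Without 0 h replicate 1 its log2-fold change was 0.57 and its adjusted p 0.00571. let-7b-5p had a log2-fold change of 0.18 (−0.13 to 0.48, adjusted p = 0.316) and miR-98-5p one of 0.10 (−0.19 to 0.39, adjusted p = 0.564). let-7d-5p had 284 and 258 CPM at 0 h, 311 and 313 after 24 h, and 247 and 234 at 96 h, with a log2-fold change of −0.17 (−0.49 to 0.14, adjusted p = 0.354). It was the only member with a negative value.

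The direction of these changes depended on the scaling between libraries. Under total counts the median of all tested miRNAs moved from −0.10 to −0.83, and 0 members were higher while 4 were lower at an adjusted p under 0.05, namely let-7b-5p (−0.55), let-7d-5p (−0.90), let-7i-5p (−0.34), and miR-98-5p (−0.63). Total counts called 44 miRNAs higher and 279 lower in all, against 112 and 104 under TMM. A change of scaling shifts every miRNA by nearly the same amount. Values of the members relative to that median were therefore nearly fixed in advance. They ran from −0.07 to 0.92 under total counts and from −0.07 to 0.91 under TMM.

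**Figure D2:**
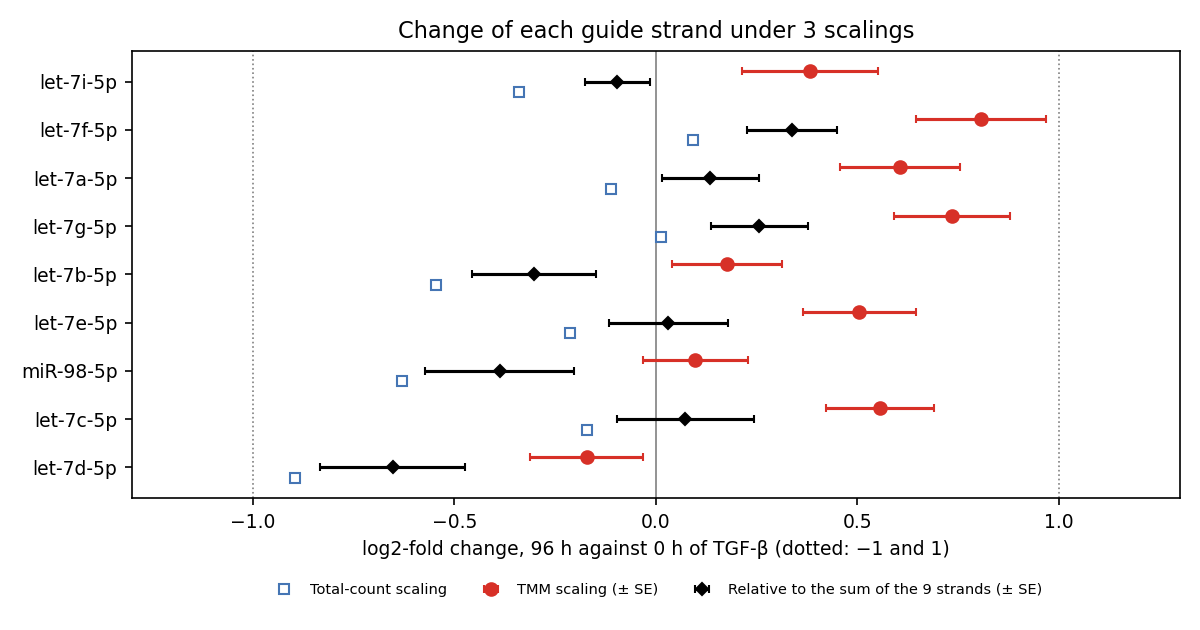
Log2-fold change of each guide strand at 96 h against 0 h, under TMM (circles, ± standard error), under total counts (open squares), and relative to the sum of the 9 strands (diamonds, ± standard error), with members ordered by level. let-7f-5p is highest and let-7d-5p lowest under each of the 3, while the position of zero moves with the scaling.

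Between 24 and 96 h, 0 of the 9 members had an adjusted p under 0.05, against 12.6% of all tested miRNAs, and 2 had an unadjusted p under 0.05, against 31.0%. These were let-7f-5p, with a log2-fold change of 0.43 (adjusted p = 0.099), and let-7d-5p, with −0.38 (adjusted p = 0.101, edgeR's quasi-likelihood test). DESeq2's Wald test called 1 member, and with its size factors in edgeR 71 of the 491 tested miRNAs were called.

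The make-up of the family, which does not depend on the scaling between libraries, shifted at 96 h. let-7i-5p was 64.7% ± 0.0379 of the family's reads at 0 h, 62.9% ± 1.86 after 24 h, and 60.5% ± 2.12 at 96 h (SD, n = 2). let-7f-5p was 10.9% ± 0.606, 11.7% ± 0.184, and 13.8% ± 0.602 at the same times. let-7d-5p was 0.280% ± 0.0194, 0.265% ± 0.0177, and 0.178% ± 0.00709. The shares of let-7a-5p, let-7f-5p, and let-7g-5p were above those of 0 h in both 96 h libraries, those of let-7b-5p, let-7d-5p, let-7i-5p, and miR-98-5p were below, and those of let-7c-5p and let-7e-5p overlapped. Of all tested miRNAs, set against the family's reads in the same way, 19.1% were above and 58.7% below without overlap. Shares of the members must balance within the family, which does not hold for other miRNAs, so these percentages are no like baseline.

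When each member was tested relative to the summed counts of the family, let-7f-5p was higher at 96 h by 0.34 (SE 0.11, 95% interval 0.087 to 0.59, adjusted p = 0.0317) and let-7d-5p lower, with −0.65 (SE 0.18, −1.06 to −0.25, adjusted p = 0.0157, quasi-likelihood test of edgeR, Benjamini-Hochberg adjusted). That is 1 of 9 higher and 1 of 9 lower, against 12.0% and 39.5% of all tested miRNAs on this scale. The members form the reference of this fit, so their changes balance each other. Those of other miRNAs are not bound in this way, and the percentages are no like baseline for the members. let-7i-5p, which makes up most of that sum, had −0.10 (adjusted p = 0.326), and −0.25 (adjusted p = 0.0522, edgeR) against the sum of the other 8 members. Both calls were lost when either 96 h library was left out, which leaves 1 library at that time point, while the values stayed similar. let-7d-5p had −0.61 without 96 h replicate 1 and −0.69 without 96 h replicate 2. let-7f-5p had 0.38 without 96 h replicate 1 and 0.29 without 96 h replicate 2. Its call was also lost without 0 h replicate 2, where it had 0.28. miR-98-5p had −0.39 (adjusted p = 0.104) and was called without 0 h replicate 1 (−0.53, adjusted p = 0.0457). At 24 h, and between 24 and 96 h, 0 members were called on this scale, with lowest adjusted p-values of 0.465 and 0.0789, against 8.55% and 4.28% of all tested miRNAs called.

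**Figure D3:**
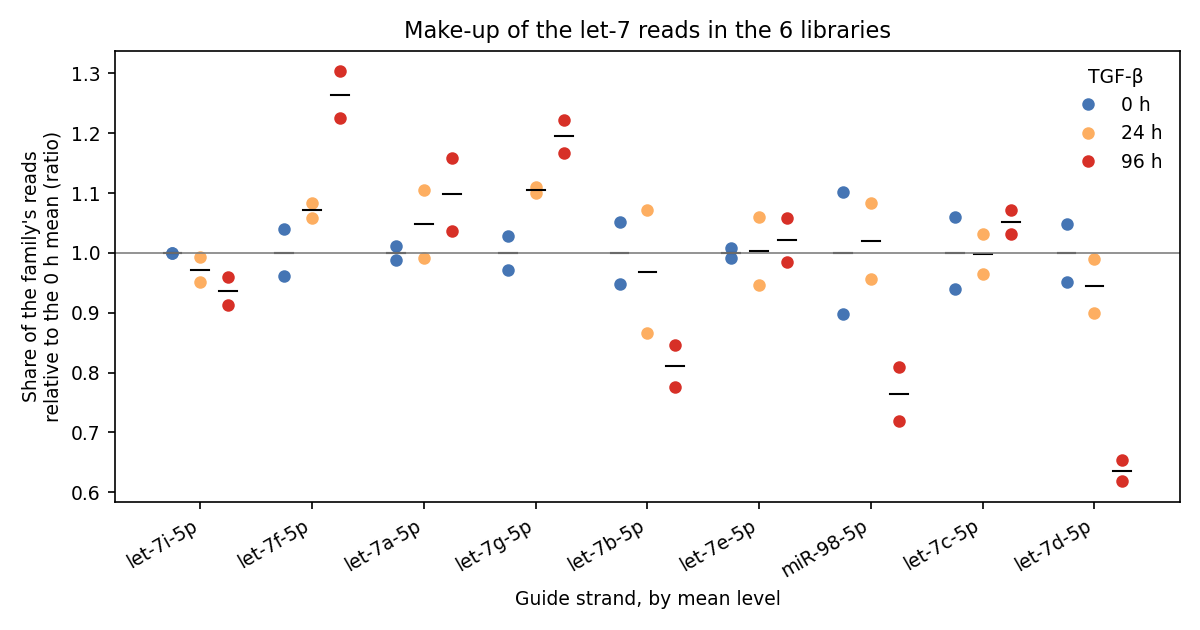
Share of the family's reads held by each guide strand, divided by its mean share at 0 h (ratio), for the 6 libraries, with a bar at the mean of 2 libraries. The 96 h points of let-7f-5p and let-7g-5p lie above 1 and those of let-7b-5p, miR-98-5p, and let-7d-5p below it.

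The ratios between members of 1 genomic cluster moved by different amounts. For MIRLET7A1 and MIRLET7F1, the nearest pair, there were 1.09 and 1.03 reads of let-7f-5p per read of let-7a-5p at 0 h and 1.25 and 1.19 at 96 h. For MIRLET7A3 and MIRLET7B there were 2.55 and 2.24 reads of let-7a-5p per read of let-7b-5p at 0 h and 3.20 and 3.27 at 96 h. For MIRLET7F1 and MIRLET7D on chromosome 9 there were 42.5 and 35.6 reads of let-7f-5p per read of let-7d-5p at 0 h, 42.5 and 45.7 after 24 h, and 77.1 and 77.5 at 96 h. For MIRLET7F2 and MIR98 on the X chromosome there were 21.2 and 15.9 reads of let-7f-5p per read of miR-98-5p at 0 h, 18.3 and 20.3 after 24 h, and 31.1 and 29.4 at 96 h. All 4 ratios were higher in the 96 h libraries than in any other, and let-7a-5p and let-7f-5p are each read from more than 1 cluster. Of the 36 ratios between members, 32 did not overlap between 0 and 96 h and 12 did not between 0 and 24 h. Among all pairs of the 153 miRNAs with means of 100 CPM or more, 75.2% and 56.9% did not overlap. The 36 ratios reuse the same 9 members and are not independent.

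The miRNAs encoded beside let-7 precursors belong to the miR-99/100 and miR-125 families. At 96 h, 4 of the 5 were higher at an adjusted p under 0.05 (22.8% of all tested miRNAs, 37.9% of those at 100 CPM or more), miR-99a-5p by 0.96, miR-100-5p by 0.95, miR-125a-5p by 0.59, and miR-99b-5p by 0.42 (adjusted p = 0.0371, edgeR), and miR-125b-5p had a log2-fold change of 0.37 (adjusted p = 0.147). At 24 h, 0 of the 5 passed, against 7.13% of all tested miRNAs. let-7c-5p and let-7e-5p, whose precursors lie beside MIR99A and MIR99B, had 0.56 and 0.50. These are TMM values, and relative to the family's own reads the 5 neighbours had 0.50 (miR-99a-5p), 0.47 (miR-100-5p, adjusted p = 0.00932, edgeR), 0.10 (miR-125a-5p), −0.05 (miR-99b-5p), and −0.13 (miR-125b-5p), of which that of miR-100-5p passed.

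The other strand of each precursor is usually degraded after the guide strand is loaded. Of the 11 other strands, 10 were tested, and let-7g-3p did not pass the expression filter. At 96 h 1 of them was higher, let-7f-2-3p (log2-fold change 0.85, adjusted p = 0.0328, edgeR), and 0 were lower, against 22.8% and 21.2% of all tested miRNAs. The median of the 10 was −0.16. On the scale of the family's reads let-7f-2-3p had 0.36 (adjusted p = 0.347, edgeR). Relative to the family's reads 0 of the 10 were higher and 4 were lower, against 12.0% and 39.5% of all tested miRNAs on this scale. These were let-7a-3p (−0.56, adjusted p = 0.034), let-7b-3p (−0.72, 0.0463), let-7d-3p (−0.67, 0.0294), and let-7i-3p (−1.25, 0.0302, edgeR). The guide strand was in excess for every member. let-7d had the smallest excess, 5.53 ± 0.209 guide reads per read of the other strand at 0 h and 5.66 ± 0.887 at 96 h (SD, n = 2). In 4 of 9 pairs the ratio was above that of 0 h in both 96 h libraries and in 0 it was below. All 4 were among the 6 pairs with at least 20 reads of the other strand in every library. Among 64 other precursors with at least 20 reads of both strands in every library, 42.2% were above and 17.2% below. The 4 pairs were let-7a, from 97.8 and 98.0 to 155 and 159, let-7b, from 104 and 130 to 160 and 150, let-7e, from 95.3 and 80.3 to 128 and 113, and let-7i, from 1120 and 491 to 1950 and 1228. Libraries of let-7i at 0 h differed widely, with 168 and 387 reads of let-7i-3p. The ratios were not tested.

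**Figure D4:**
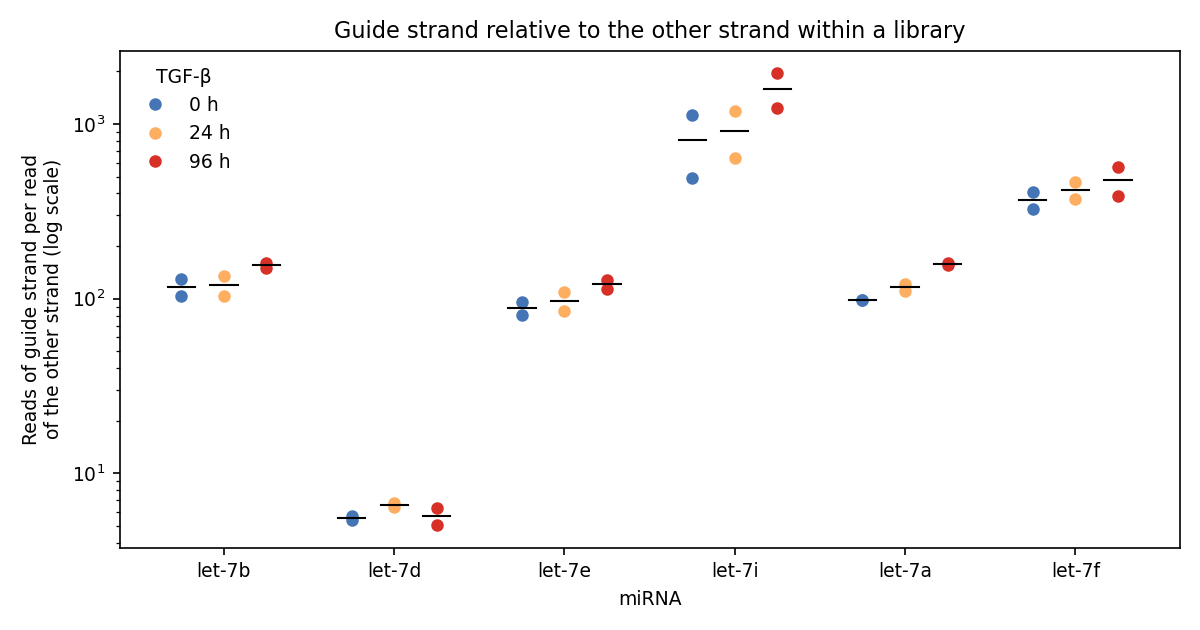
Reads of the guide strand per read of the other strand (log scale) in each library, for the 6 pairs with at least 20 reads of the other strand in every library, with a bar at the mean of 2 libraries. let-7d lies lowest at every time point, and the 96 h points of let-7a, let-7b, let-7e, and let-7i lie above their 0 h points.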

How the data were processed

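Small RNA libraries were made with an Illumina kit, and the authors assigned the reads to mature miRNAs with miRDeep2. The submitters' processing notes name hg19 and FastQC; the mapper settings are not given in the sources used here. The authors deposited raw counts per mature miRNA and precursor, with both runs of a library summed. They also deposited a normalized signal, for which each run was scaled to a common total and both runs were added; 1 column, which repeats another, was not used, so 96 h replicate 2 has no such value.

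The counts went into edgeR 4.0.16 under R 4.3.3: TMM normalization, filterByExpr with a minimum count of 10 (491 miRNAs, all 9 members among them), and the quasi-likelihood F-test on 1 model of time point over all 6 libraries, with Benjamini-Hochberg adjustment over the 491. Calls were made at an adjusted p under 0.05, and separately with an absolute log2-fold change above 1. Standard errors are the absolute log2-fold change divided by the square root of F. A second fit used the members' summed counts as library size. An exact two-sided permutation test of 2 against 2 cannot give a p below 0.333. The procedure was tested on simulated data. The members and lists were chosen with earlier results of these data known. Named miRNAs were the 9 members, their other strands, the cluster neighbours, miRNAs of the same seed, miR-21-5p, marker lists, and the 5 miRNAs most like the family sum. Alternatives used DESeq2 1.42.0, limma 3.58.1 with a pseudocount of 1, other scalings and filters, and each library left out. Figures were drawn in Python 3.11.15 with matplotlib 3.10.9.

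The runs of 5 libraries were separated from the deposited counts and normalized signal. With a rounding tolerance of 0.005 CPM, 84.9 to 95.0% of the entries of up to 10 counts came out as whole reads. The tolerance was then widened to 0.01, as for runs rounded before they were added, after that result had been seen. All such entries then came out whole (100%). At a fixed split 2.30 to 10.6% would by chance. The split was however chosen to give the most whole entries, so that share is no baseline for it. The largest remainder up to 300 counts was 0.00960, a value that the tolerance itself bounds.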

Additional observations from a re-analysis of the deposited data

Results flagged for a closer look

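Between 24 and 96 h miR-100-5p, encoded in the same host gene as MIRLET7A2, rose by a log2-fold change of 0.60 (adjusted p = 0.0245, quasi-likelihood test of edgeR, Benjamini-Hochberg adjusted), and it was listed because this test of the 2 time points passed. Of all tested miRNAs 12.6% passed this test, and the date of the second run differs between these time points too. Relative to the family's reads miR-100-5p had 0.41 (adjusted p = 0.0631, edgeR), which did not pass, so a difference from the members was not shown between 24 and 96 h. At 96 against 0 h it had 0.47 on that scale (adjusted p = 0.00932, edgeR), which passed.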

How the results depend on the processing

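Scaling changed directions most. Under total counts the summed members had log2-fold changes of 0.0012 (24 against 0 h), −0.24 (96 against 0 h), and −0.25 (96 against 24 h). Signs turned at 24 against 0 h for let-7b-5p (−0.048), let-7c-5p (−0.0010), let-7d-5p (−0.081), and let-7i-5p (−0.038). At 96 against 0 h they turned for let-7a-5p (−0.11), let-7b-5p (−0.55), let-7c-5p (−0.17), let-7e-5p (−0.21), let-7i-5p (−0.34), and miR-98-5p (−0.63). At 96 against 24 h they turned for let-7a-5p (−0.18), let-7c-5p (−0.17), let-7e-5p (−0.22), let-7f-5p (−0.0064), let-7g-5p (−0.13), and let-7i-5p (−0.30). In that comparison 4 members were called, all lower, against 16 higher and 123 lower of all 491 tested miRNAs. limma on the authors' normalized values, with 1 library at 96 h assumed to vary like the others, gave 3 members at 96 against 0 h, all lower. There, signs turned at 24 against 0 h for let-7b-5p (−0.055), let-7d-5p (−0.081), and let-7i-5p (−0.030). At 96 against 0 h they turned for let-7a-5p (−0.12), let-7b-5p (−0.56), let-7c-5p (−0.12), let-7e-5p (−0.22), let-7i-5p (−0.24), and miR-98-5p (−0.64), and at 96 against 24 h for let-7a-5p (−0.21), let-7c-5p (−0.14), let-7e-5p (−0.24), let-7f-5p (−0.0090), let-7g-5p (−0.11), and let-7i-5p (−0.21). Totals without miR-21-5p gave 0.13 and 0.021 for the sum at 96 h against 0 and 24 h. They called 3 members at 96 against 0 h (let-7f-5p and let-7g-5p higher, let-7d-5p lower), against 71 higher and 174 lower of the 491. At 96 against 24 h 1 member was called (let-7d-5p, lower), against 29 higher and 38 lower. Values that turned were −0.17 for let-7b-5p and −0.26 for miR-98-5p (96 against 0 h) and −0.033 for let-7i-5p (96 against 24 h). Upper-quartile factors gave 0.28 and 0.076 for the sum, −0.028 for let-7b-5p, and −0.11 for miR-98-5p. They called 2 members at 96 against 0 h, against 86 higher and 147 lower of the 491. A mean of at least 10 CPM gave −0.046 for miR-98-5p at 96 against 0 h. let-7b-5p at 96 against 24 h was 0.0033 by DESeq2 and 0.0032 with its size factors in edgeR. At 96 against 24 h, 1 member was called by DESeq2 and without a filter (let-7f-5p, higher), 1 at a mean of at least 10 CPM (let-7d-5p, lower), and 2 from only the libraries compared (let-7f-5p higher, let-7d-5p lower). Without a filter 61 of all 1417 were higher and 37 lower, and at a mean of at least 10 CPM 35 of 324 were higher and 20 lower. Counted over every precursor entry the family held 14.6, 14.9, and 13.1% of the reads at 0, 24, and 96 h. With only the highest entry of each miRNA, and without miR-21-5p, it held 26.8, 28.8, and 29.2%. For limma, DESeq2, only the libraries compared, and each library left out, the share of all tested miRNAs called is not given here, so these member counts have no background. The causes were not tested.

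Leaving out 1 library at a time gave 0 to 4 members at 24 against 0 h (4 without 0 h replicate 1) and 2 to 6 at 96 against 0 h (2 without 96 h replicate 1), with 0 to 1 past both thresholds (1 without 0 h replicate 1), and a sum at 96 against 24 h of 0.12 to 0.36. Values that turned ranged from −0.055 to 0.041 for let-7b-5p at 96 against 24 h. Relative to the family they ranged, at 24 against 0 h, from −0.013 to 0.14 (let-7a-5p), −0.21 to 0.099 (let-7b-5p), −0.088 to 0.087 (let-7c-5p), −0.079 to 0.085 (let-7e-5p), and −0.11 to 0.18 (miR-98-5p). They ranged from −0.012 to 0.16 (let-7c-5p) and −0.023 to 0.083 (let-7e-5p) at 96 against 0 h, and from −0.015 to 0.15 (let-7a-5p) and −0.054 to 0.11 (let-7e-5p) at 96 against 24 h.

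The replicate numbers did not pair the libraries, with correlations of −0.31, 0.33, and −0.20 between same-numbered libraries. With 2 libraries per time point the crossed correlations are the same values with the opposite sign. By these signs 0 h replicate 1, 24 h replicate 2, and 96 h replicate 1 deviated in the same direction. What they share was not tested. With the replicate block 5 members were called at 96 against 0 h, against 114 higher and 92 lower of the 491 tested miRNAs. let-7f-5p relative to the family had 0.34 with that block (adjusted p = 0.0698, edgeR). Depth limits let-7g-3p, let-7c-3p, let-7a-2-3p, and miR-98-3p, with 21, 47, 65, and 69 counts in all libraries together. Of the values under alternatives other than leaving out a library, 355 kept their direction and their side of the threshold or stayed within the allowed spread, 39 changed sign, 22 moved further, 15 passed a threshold that the reported value missed, and 11 missed one that it passed.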

Other observations

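Among 144 miRNAs outside the family with a mean of at least 100 CPM, the 5 whose profile over the 6 libraries was most like that of the family sum were miR-125b-1-3p, miR-340-5p, miR-30a-5p, miR-96-5p, and miR-30b-5p, with root mean square differences of 0.0696, 0.0727, 0.0759, 0.0914, and 0.0919 on the log2 scale. This is a description over libraries that share 1 normalization.

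The 2 runs of a library differed little for the members. Over the 5 libraries in which runs could be separated, the median absolute log2 difference between runs was 0.0354 and the largest 0.269, for let-7d-5p. With the narrower rounding tolerance, which was run first, they were 0.0354 and 0.269 as well.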
